A study of Mus musculus with 4 samples.

Results

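The 10 genes described here belong to the mouse stress response that cells mount against unfolded protein and amino acid shortage. They were taken by name as 2 branches, an ATF4 branch of 6 genes (Atf4, Atf5, Ddit3, Trib3, Asns and Chac1) and a chaperone branch of 4 genes (Hspa5, Hsp90b1, Xbp1 and Pdia4). All 10 were present among the 31765 genes of the plaque tables and among the 29459 genes of the ligation tables. Single-cell RNA was sequenced in 4 libraries, 1 per genotype in each of 2 experiments. The plaque libraries held cells of micro-dissected atherosclerotic lesions of the aorta and carotid arteries of C57Bl/6 mice on a high fat diet, which carried a tamoxifen-inducible Myh11-CreERt2, the Confetti reporter and a null ApoE in both genotypes. The control mice (ApoE-/-) lacked the transgene and the others (Trf2T188A/ApoE-/-) also carried Sm22a-Trf2T188A, a point mutant of the telomere protein TRF2 driven by a minimal Sm22a promoter active in arterial vascular smooth muscle cells (VSMCs). The authors kept the clusters that expressed Confetti, so the plaque cells were VSMC-derived, and only male mice carry the Cre. The ligation libraries held cells of the left carotid artery 28 days after ligation in wild type and SM22a-TRF2T188A littermates (Trf2T188A), with the adventitia removed and without a lineage gate, so they also held endothelial and immune cells, in which the promoter is not active by design.

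The plaque libraries held 1502 ApoE-/- and 929 Trf2T188A/ApoE-/- cells, with 37869934 and 24064570 unique molecular identifiers (UMIs, 1 for each captured RNA molecule). The ligation libraries held 4967 wild type and 5392 Trf2T188A cells, with 47713453 and 67426588 UMIs. Median UMIs per cell were 22765.5 and 24377 in plaque and 8631 and 11153 after ligation. The mean level of Terf2, the gene of TRF2, was 0.189 in ApoE-/- and 0.180 in Trf2T188A/ApoE-/- plaque cells and 0.180 in wild type and 0.164 in Trf2T188A ligated cells, in UMIs per 10000 UMIs of the cell. Total Terf2 reads do not separate the mutant from the native gene, so they did not check the genotype labels. Apoe was found in 6.52% of ApoE-/- and 9.47% of Trf2T188A/ApoE-/- cells and in 65.5% and 63.4% of wild type and Trf2T188A ligated cells. Acta2, the smooth muscle actin, was found in 98.2% to 99.6% of the cells of each library. The ligation libraries shared 10 cell barcodes and the plaque libraries shared 0. With 1 library per genotype there was no replicate error and no test between genotypes was possible. How many mice were pooled for a library is not given in the sources used here. Every interval below is a 95% interval for the counting of UMIs only, and does not cover the spread between animals.

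The unfolded protein response starts when proteins fold badly in the endoplasmic reticulum (ER). The kinase PERK then phosphorylates the initiation factor eIF2α, which slows translation but favours translation of the factor ATF4, while the sensors IRE1 and ATF6 act through the factor XBP1 and the cleaved ATF6 and raise the ER chaperones. ATF4 is also raised through other eIF2α kinases, such as GCN2 when amino acids run short, and this wider programme is called the integrated stress response. VSMCs that leave the contractile state secrete collagen and other matrix proteins, which are folded in the ER. Because ATF4 is regulated largely by translation and XBP1 by splicing, the RNA level of either gene is not the activity of its protein, and splicing of Xbp1 is not read from 3′ counts.

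The factors of the branches are known to bind different promoter elements, so promoter stretches of 4 members that hold one are shown, a pair of chaperones and a pair of ATF4 branch genes. Both strands of the RefSeq promoters (GRCm38.p6, 250 bases before to 50 after each gene start) were searched for the ER stress response element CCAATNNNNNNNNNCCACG, the C/EBP-ATF response element TGATGNAA and the element TGACGTGG bound by XBP1 and ATF6, and all 10 members had a promoter. Capitals mark the match, which is on the other strand in Chac1 and in the second match of Hsp90b1. The stretches lie at chr2:34772020-34772049 on the plus strand for Hspa5, chr10:86705525-86705674 on the minus strand for Hsp90b1, chr6:7693214-7693243 on the minus strand for Asns and chr2:119350992-119351141 on the plus strand for Chac1.
Hspa5: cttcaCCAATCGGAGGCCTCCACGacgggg
Hsp90b1: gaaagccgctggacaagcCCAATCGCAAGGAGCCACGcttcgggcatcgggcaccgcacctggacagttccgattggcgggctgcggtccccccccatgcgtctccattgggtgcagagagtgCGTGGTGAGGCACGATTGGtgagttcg
Asns: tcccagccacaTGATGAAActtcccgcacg
Chac1: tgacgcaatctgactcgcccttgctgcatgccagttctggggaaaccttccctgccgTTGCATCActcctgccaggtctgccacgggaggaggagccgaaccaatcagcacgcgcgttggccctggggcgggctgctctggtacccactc

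The ER stress response element was found in 39 of all 32851 promoters (0.119%), among them those of Hspa5 and Hsp90b1 and of none of the ATF4 branch genes. It was also found in 5 of the 12 other ER chaperone genes with a promoter (Calr, Canx, Creld2, Dnajc3 and Pdia6). The C/EBP-ATF response element was found in 1304 promoters (3.97%), among them those of Asns, Chac1 and Trib3 and of none of the chaperone branch genes. Among 8 tRNA synthetase genes with a promoter, 5 held it (Aars, Gars, Iars, Tars and Yars). TGACGTGG was found in 222 promoters (0.676%) and in no member. A match is a run of letters, not a bound site, and the lack of one in this window says nothing about the factor.

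Cells were grouped again from the deposited values, with the 113 genes of the stress lists left out of the clustering, and clusters were named after the authors' clusters by their marker genes. In plaque, contractile cells (758 ApoE-/- and 353 Trf2T188A/ApoE-/- cells) led with Myh11, Acta2, Tagln and Cnn1. Cluster 2-like cells (158 and 130) led with the secreted and matrix genes Timp1, Spp1, Thbs1, Fn1, Lum and Col1a1. Cluster 8-like cells (81 and 63) led with the cartilage genes Col2a1, Chad and Acan, Cluster 4-like cells (108 and 75) with the inflammatory genes C3, Lcn2 and Saa3, and Cluster 3-like cells (197 and 148) with Mt1, Itih4 and Clu. Smaller or shallower classes were Cluster 10-like (41 and 40), Cluster 11-like (44 and 22) and Cluster 5-like cells (80 and 97), the last of these with a median of 9881.5 and 7908 UMIs per cell. Another 35 ApoE-/- cells and 1 Trf2T188A/ApoE-/- cell stayed unnamed.

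In plaque, the chaperone branch was higher in the modulated matrix-producing state than in contractile cells, in both libraries, whereas the ATF4 branch was higher there in the ApoE-/- library and not in the other. HSPA5 (BiP, GRP78) is the main chaperone of the ER lumen and binds nascent chains. Its mean in ApoE-/- cells was 5.20 (5.10 to 5.31) UMIs per 10000 in contractile and 8.67 (8.45 to 8.89) in Cluster 2-like cells, and in Trf2T188A/ApoE-/- cells 6.27 (interval up to 6.45) and 8.43 (8.17 to 8.71). The Cluster 2-like means lay above the contractile means in both libraries, with intervals apart. Differences are given below on a log2 scale, as the ratio of 2 means after adding 0.1 UMIs per 10000 to each, and are called where they reach 0.25 and the gene is found in 10% or more of the cells of either side. With the libraries weighted equally, the ratio of Cluster 2-like over contractile cells was 0.57 (0.52 to 0.61) for Hspa5, 0.82 (0.77 to 0.87) for Hsp90b1 and 0.81 (0.68 to 0.94) for Pdia4, and 0.51 (0.38 to 0.64) for Xbp1. Hsp90b1 encodes GRP94, the ER paralogue of HSP90, and Pdia4 encodes a protein disulphide isomerase. All 4 genes of the chaperone branch were thus called higher, where 25.8% of the 11263 genes tested were called higher and 25.8% lower. Their median ratio was 0.69 (0.62 to 0.76), beside −0.0050 over all genes tested.

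**Figure D1:**
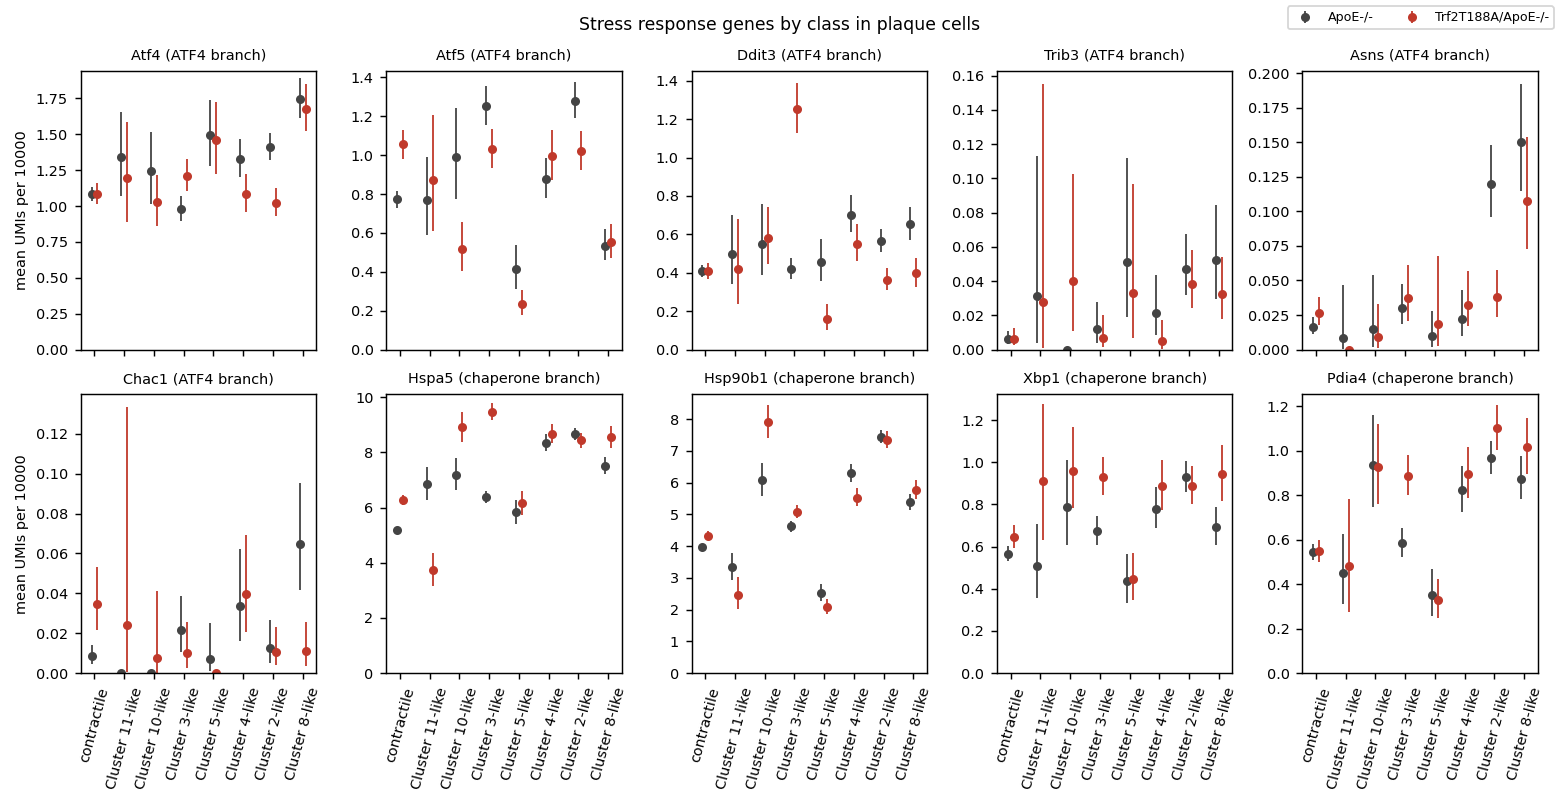
Mean UMIs per 10000 of each of the 10 genes (vertical axes, one panel per gene) in each plaque cell class (horizontal axes), for the ApoE-/- library (dark points) and the Trf2T188A/ApoE-/- library (red points), with 95% counting intervals as bars. Hspa5 runs from 5.20 in contractile to 8.67 in Cluster 2-like cells of the ApoE-/- library, while Asns in Cluster 2-like cells stands at 0.120 in the ApoE-/- and 0.0379 in the Trf2T188A/ApoE-/- library.

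Of the ATF4 branch, Atf5 was called higher in Cluster 2-like cells at 0.30 (0.18 to 0.43). Asns had a ratio of 0.56 (0.41 to 0.71), but reached 10% of cells on the Cluster 2-like side only, where it was high. ATF5 is a bZIP factor downstream of ATF4, and ASNS makes asparagine. The median ratio of the 6 genes was 0.23 (0.13 to 0.33). Atf4 itself had a ratio of 0.15 and Ddit3, which encodes the pro-apoptotic factor CHOP, of 0.16. Trib3, a pseudokinase that dampens the response, and Chac1, a glutathione-degrading enzyme, were each found in under 10% of cells on both sides of this comparison.

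The libraries differed in this comparison for the ATF4 branch. In ApoE-/- cells alone, the ratio of Cluster 2-like over contractile cells was 0.35 for Atf4, 0.66 for Atf5, 0.40 for Ddit3 and 0.92 for Asns. In Trf2T188A/ApoE-/- cells alone it was −0.08 for Atf4, −0.04 for Atf5, −0.13 for Ddit3 and 0.12 for Asns. None of these 4 ratios reached the threshold in the second library, whereas each of the 4 did in the first. Asns was found in 9.23% of Cluster 2-like and 5.67% of contractile Trf2T188A/ApoE-/- cells, too few for a call there. In ApoE-/- cells it passed the detection filter on the Cluster 2-like side only, at 19.0% beside 3.30%. Among all genes, 27.4% of 11576 were called higher and 24.1% lower in the ApoE-/- library. In the Trf2T188A/ApoE-/- library 26.7% of 11120 were called higher and 30.4% lower. The chaperone genes kept their direction in each, at 0.73 and 0.42 for Hspa5, 0.89 and 0.75 for Hsp90b1, 0.63 and 0.40 for Xbp1 and 0.73 and 0.89 for Pdia4 in ApoE-/- and Trf2T188A/ApoE-/- cells. Whether the state difference depends on genotype was not tested, since each genotype is 1 library.

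Other lists of the same pathways were read beside the members in this comparison, and the genes named from them were chosen after their values were seen. With the libraries together, 25.8% of the 11263 genes tested were called higher and 25.8% lower. Of 16 other ER chaperones and folding enzymes tested, 11 were higher and 1 lower in Cluster 2-like than in contractile cells, with a median of 0.56. Of 11 genes for collagen folding in the ER, 10 were higher, with a median of 0.81. Of 10 genes of amino acid synthesis that ATF4 induces, 7 were higher (0.39), and of 12 tRNA synthetases 5 were higher (0.12). Thus the lists of the ER lumen showed larger median differences than those of amino acid supply. Among the sensors, Ern1 (IRE1) had a ratio of 1.25 and Eif2ak3 (PERK) of 0.95, while Atf6b was lower at −0.41. Genes that tissue digestion induces, such as Fos and Jun, ran the other way, with 11 of 16 lower, 2 higher and a median of −0.46. Cytosolic heat shock genes were lower in 5 of 9 and higher in 2, with a median of −0.36.

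The other plaque states differed in which branch stood higher. Hspa5 in ApoE-/- cells was highest in Cluster 2-like and Cluster 4-like cells, whose intervals overlap, and lowest in contractile cells at 5.20, apart from its nearest neighbour. In Cluster 4-like cells all 4 chaperone genes were higher than in contractile cells in each library, at 0.40 to 0.57 with the libraries weighted equally, where 27.2% of 11268 genes were called higher and 24.2% lower. In Cluster 10-like cells all 4 were higher in each library, at 0.46 to 0.74, where 31.4% of 10709 genes were called higher and 15.7% lower. In Cluster 3-like cells 3 of 4 were higher with the libraries together, where 11.6% of 10599 genes were called higher and 9.77% lower. The Trf2T188A/ApoE-/- library carried this count, with Hspa5 at 0.59, Pdia4 at 0.61 and Xbp1 at 0.47, whereas in ApoE-/- cells only Hspa5 passed the threshold, at 0.29, beside 0.09 for Pdia4 and 0.21 for Xbp1. Cluster 5-like cells, the shallowest class, showed the opposite. There 3 of 4 chaperone genes were lower, with Hsp90b1 at −0.82, Pdia4 at −0.56 and Xbp1 at −0.38, where 36.7% of 10200 genes were called lower and 37.6% higher. Atf5 was lower by more, at −1.26, while Atf4 was higher at 0.41. How much the low depth of Cluster 5-like cells contributed was not tested. In Cluster 11-like cells Hsp90b1 had a ratio of −0.50.

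Cluster 8-like cells, those with cartilage genes, had the highest mean Atf4 of the named plaque classes in both libraries, with intervals that overlapped those of Cluster 5-like cells. The mean was 1.75 (1.61 to 1.89) in ApoE-/- and 1.68 (1.52 to 1.85) in Trf2T188A/ApoE-/- cells, beside 1.08 and 1.09 in contractile cells. The ratio over contractile cells was 0.61 (0.48 to 0.75) for Atf4, while Atf5 was lower at −0.66 (−0.83 to −0.48), and both held in each library, where 22.7% of 11316 genes were called higher and 44.5% lower. Ddit3 had 0.30 over the libraries, from 0.57 in ApoE-/- and −0.03 in Trf2T188A/ApoE-/- cells. Asns had 0.91, but reached 10% of cells on the Cluster 8-like side only. All 4 chaperone genes were higher in each library, from 0.38 for Xbp1 to 0.69 for Pdia4, and all 11 genes of collagen folding in the ER were higher, with a median of 1.30. The median over all genes tested in this comparison was −0.18. Genes induced by tissue digestion were also higher in these cells, 12 of 16 with a median of 1.25, and their part in the values of Atf4 and Hspa5 was not tested.

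Over 16 plaque class and library means, which share libraries and classes, Atf4 and Atf5 had a Pearson's r of −0.53. Atf4 in ApoE-/- cells ran in the order Cluster 8-like, 5-like, 2-like, 11-like, 4-like, 10-like, contractile and 3-like, and the interval of each class overlapped that of the next. Cluster 2-like cells had rank 3 of 8 in that order and rank 8 in Trf2T188A/ApoE-/- cells, where neighbouring intervals overlapped as well. Hspa5 in Trf2T188A/ApoE-/- cells was highest in Cluster 3-like cells at 9.48 (9.20 to 9.78) and lowest in Cluster 11-like cells at 3.73.

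**Figure D2:**
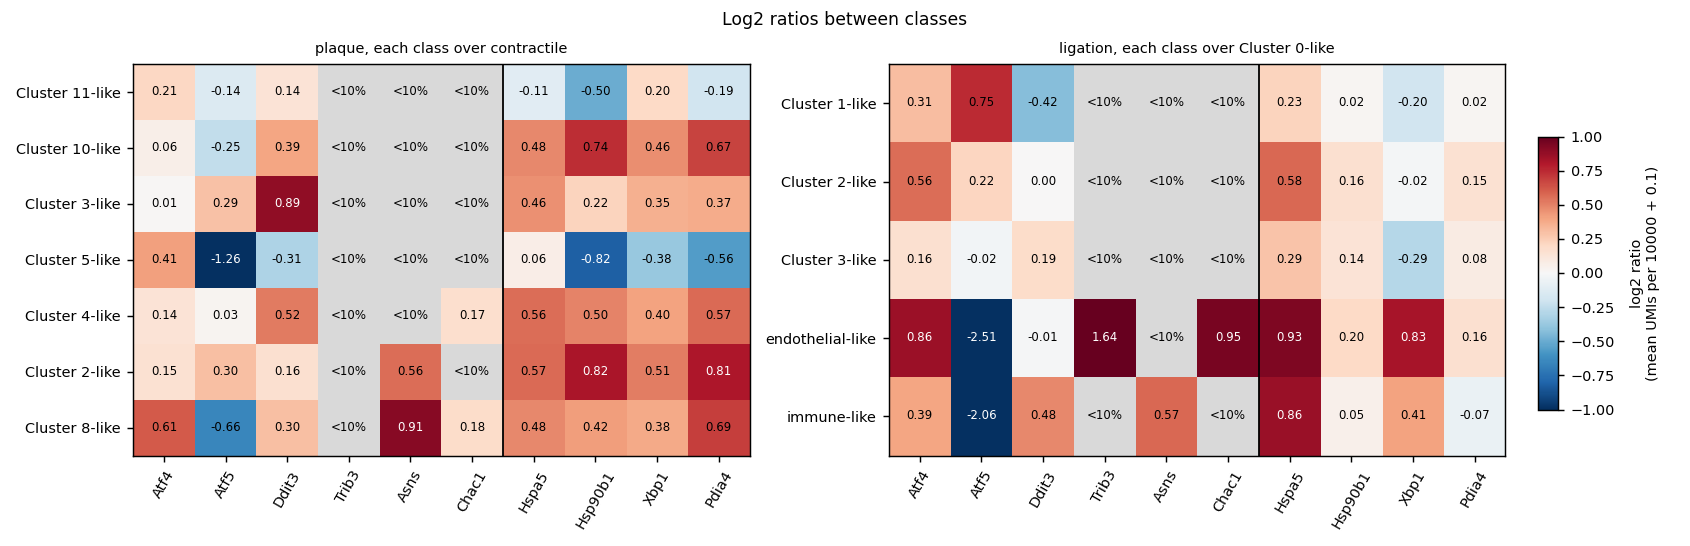
Log2 ratio of each class over the reference class of its experiment (contractile cells in plaque, Cluster 0-like cells after ligation), both libraries weighted equally, for the 10 genes (columns) and the classes (rows), with the value in each cell and grey where a gene was found in under 10% of cells of both sides. The chaperone columns are positive in Cluster 10-like, 3-like, 4-like, 2-like and 8-like plaque cells and mostly negative in Cluster 5-like cells, and Atf5 in endothelial-like cells after ligation stands lowest of all at −2.51.

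Over all plaque cells the genotypes differed little, and more for the chaperone than for the ATF4 branch. Hspa5 had a mean of 6.35 (6.27 to 6.42) in ApoE-/- and 7.49 (7.38 to 7.59) in Trf2T188A/ApoE-/- cells, a ratio of 0.23 (0.20 to 0.27). Xbp1 had 0.644 (0.619 to 0.669) and 0.765 (0.732 to 0.799), a ratio of 0.22 (0.13 to 0.31). Pdia4 had a ratio of 0.17 (0.07 to 0.26) and Hsp90b1 of 0.08 (0.04 to 0.12). Hence the 4 chaperone genes were higher in the Trf2T188A/ApoE-/- library with intervals above 0, but none reached 0.25. Contractile cells, which had the lowest Hspa5 of the ApoE-/- classes, made up 50.5% of the ApoE-/- and 38.0% of the Trf2T188A/ApoE-/- library, and the part of this shift in the all-cell ratios was not tested. Atf4 had a mean of 1.19 (1.16 to 1.23) and 1.18 (1.13 to 1.22), a ratio of −0.02 (−0.10 to 0.06), in 82.3% and 81.7% of cells. Of the 7 members found in 10% or more of cells, 0 were called, where 3.19% of 10526 genes were called higher and 1.76% lower. The medians were 0.19 (0.13 to 0.26) for the chaperone branch, 0.00 (−0.06 to 0.07) for the ATF4 branch and −0.0085 over all genes. Trib3, Asns and Chac1 were seen in 3.01% to 6.92% of cells, with 50 to 210 UMIs per library.

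Among the other lists over all plaque cells, 2 of 16 ER chaperone genes were higher in Trf2T188A/ApoE-/- cells. These were Sdf2l1, a cofactor of BiP, at 0.47 (means 0.136 and 0.226), and Creld2, at 0.26 (0.231 and 0.296). Of the stress regulators, Gdf15, a secreted stress cytokine, was higher at 0.43 and Nupr1 at 0.27, and Vldlr was lower at −0.36. No gene of the amino acid transporters, amino acid synthesis, tRNA synthetases, ER-associated degradation or sensors was called. Hspa1b and Hspa1a, the inducible cytosolic HSP70 genes, were higher at 0.47 and 0.35. Digestion-induced genes summed to 120 UMIs per 10000 in ApoE-/- and 132 in Trf2T188A/ApoE-/- cells and the immune markers to 0.25 and 0.481, and their part in these differences was not tested. Without the third of cells richest in digestion-induced genes the ratio of Hspa5 was 0.32.

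Within Cluster 2-like cells the ATF4 branch was lower in the Trf2T188A/ApoE-/- library while the chaperone branch was at the same level within 0.25. Atf4 had a mean of 1.41 (1.32 to 1.51) in ApoE-/- and 1.02 (0.929 to 1.12) in Trf2T188A/ApoE-/- cells. Ddit3 had 0.568 (0.510 to 0.630) and 0.364 (0.311 to 0.424). Asns had 0.120 (0.0957 to 0.148) and 0.0379 (0.0238 to 0.0574). For these 3 genes the intervals of the libraries do not overlap. Atf5 had 1.28 (1.19 to 1.37) and 1.02 (0.924 to 1.13), and Trib3 0.0472 and 0.0384, from 29 and 22 UMIs. The ratios were −0.43 (−0.62 to −0.24) for Atf4, −0.30 (−0.51 to −0.09) for Atf5, −0.52 (−0.78 to −0.27) for Ddit3, −0.67 (−0.93 to −0.42) for Asns and −0.09 (−0.35 to 0.17) for Trib3. Thus Atf4, Atf5 and Ddit3, the 3 genes found in 10% or more of the cells of both libraries, were called lower. Asns and Trib3 reached 10% in the ApoE-/- library only, so the filter took them in through the library where they were higher, and Chac1 was under 10% in both. The Atf5 ratio moved to −0.10 at the lower clustering resolution and that of Atf4 to −0.24 when cells were thinned before clustering. In this comparison 17.9% of 11474 genes were called lower and 10.3% higher, so a call was common among all genes. The chaperone genes had ratios of −0.04 for Hspa5, −0.02 for Hsp90b1, −0.06 for Xbp1 and 0.17 (−0.04 to 0.38) for Pdia4, and none was called. When cells were thinned before clustering, Pdia4 reached 0.29 and Hspa5 0.22. The medians were −0.37 (−0.51 to −0.22) for the ATF4 branch, −0.03 (−0.08 to 0.03) for the chaperone branch and −0.05 over all genes.

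The share of Cluster 2-like cells with a UMI was lower in the Trf2T188A/ApoE-/- library before depth was matched. Atf4 was found in 88.6% of ApoE-/- and 81.5% of Trf2T188A/ApoE-/- cells, Ddit3 in 63.9% and 53.1%, and Asns in 19.0% and 9.23%. Median depth was 34986.5 and 28605 UMIs per cell, so each cell was also thinned to 8000 UMIs. The thinned shares were 60.1% and 54.4% for Atf4, 45.1% and 42.1% for Atf5 and 34.6% and 21.9% for Ddit3. For Asns they were 4.58% and 3.51%. At this equal depth the exact binomial intervals of the libraries overlapped for each of these 4 genes. The Asns count rested on few cells, with 85 UMIs in 30 ApoE-/- cells and 22 UMIs in 12 Trf2T188A/ApoE-/- cells. The upper 5% of cells held 67.1% and 77.3% of them. Without the richest cell of each library the ratio of Asns was −0.57 and that of Ddit3 −0.52. Genes induced by digestion summed to 68.2 and 69.2 UMIs per 10000 in these cells. The endothelial markers summed to 0.363 and 0.679 and the immune markers to 0.638 and 0.490, and Ptprc, the pan-leukocyte marker, was at 0 in both. The part of these markers in the differences was not tested.

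**Figure D3:**
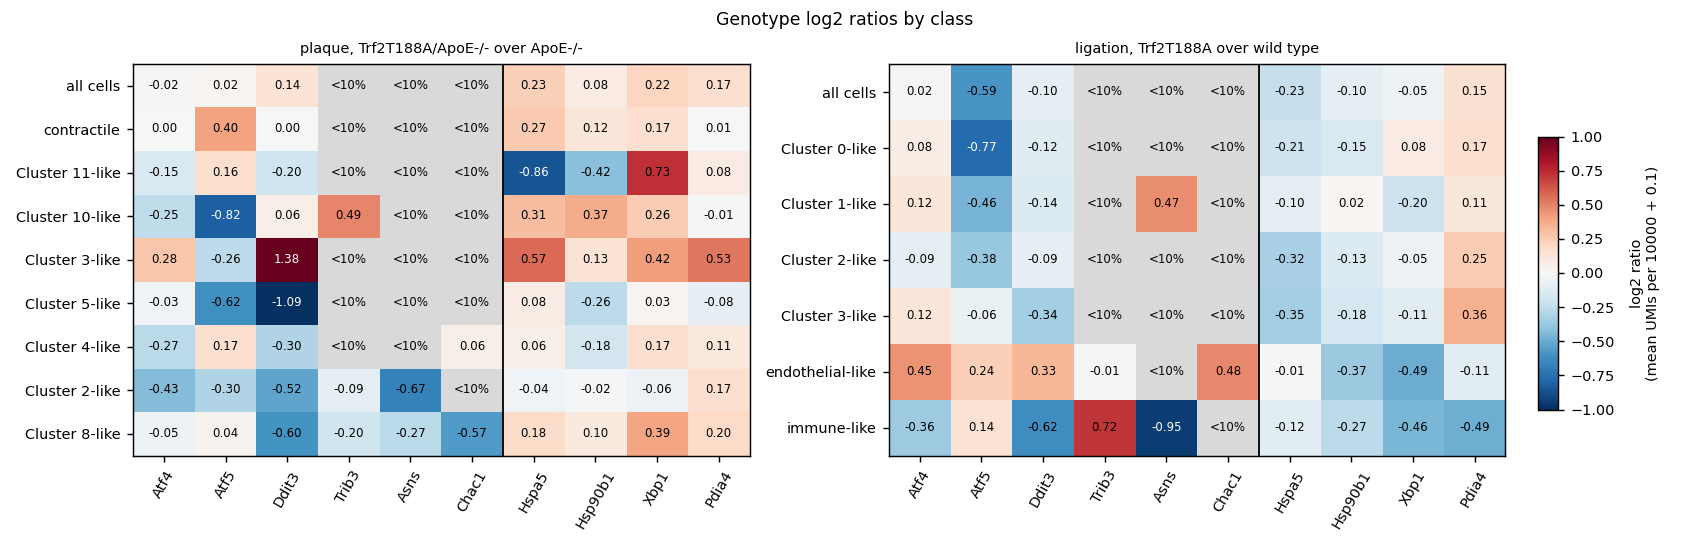
Log2 ratio of Trf2T188A over control for the 10 genes (columns) in all cells and in each class (rows) of plaque and ligated carotid, with the value in each cell and grey where a gene was found in under 10% of cells of both libraries. In plaque Cluster 2-like cells the ATF4 branch runs from −0.67 for Asns to −0.09 for Trib3 beside chaperone values from −0.06 to 0.17, and Atf5 is negative in every ligation class with 1000 or more cells per library. The value of Trib3 in Cluster 10-like cells rests on 0 UMIs in the ApoE-/- library and depends on the added 0.1.

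The other lists with ATF4 targets ran lower in the same cells. Of 12 tRNA synthetases tested, 8 were lower and 0 higher in Trf2T188A/ApoE-/- Cluster 2-like cells, with a median of −0.29 (−0.48 to −0.10). Sars had means of 0.704 and 0.483, a ratio of −0.46, and Lars of 0.620 and 0.428, a ratio of −0.45. Of the same list, Iars had a ratio of 0.19 and Yars of 0.11. Of 6 amino acid transporters 4 were lower, among them Slc7a1 at −0.56 and Slc6a9 at −0.44, while Slc7a5 had 0.22. Of 10 genes of amino acid synthesis 4 were lower, among them Psat1 (means 0.118 and 0.0352, a ratio of −0.69), of the serine pathway, and Mthfd2 (0.310 and 0.168, −0.61), of mitochondrial folate metabolism. Of 10 other stress regulators 3 were lower, with Atf3 at −0.61 (3.38 and 2.19) and Eif4ebp1 at −0.47. With 17.9% of all genes lower and 10.3% higher, more lower than higher calls were the background here.

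The ER lists differed less between genotypes. Of 16 other ER chaperones and folding enzymes, 4 were lower and 0 higher, with a median of −0.09. These included Fkbp11 at −0.48 and Ero1l at −0.41, a known target of CHOP, while Hyou1 had 0.16. None of 9 genes of ER-associated degradation and 1 of 11 genes of collagen folding (P4ha1, −0.29) were called. None of 6 eIF2α kinases and phosphatase subunits was called, and of 4 sensors Atf6b was lower at −0.35. Of 7 mitochondrial chaperones and proteases 3 were lower, among them Hspa9 at −0.47 and Hspd1 at −0.38. Of 9 cytosolic heat shock genes 3 were lower and 1 higher. Beside the 17.9% of all genes called lower, the counts for ER-associated degradation (0 of 9) and collagen folding (1 of 11) lay under that background. That for ER chaperones (4 of 16) lay somewhat above it, as did that for the stress regulators (3 of 10). Those for amino acid synthesis (4 of 10), tRNA synthetases (8 of 12) and transporters (4 of 6) lay further above it. These counts and the background share a filter that takes in a gene found in 10% of the cells of either library. A sparse gene such as Psat1 can pass it through the library where it was higher.

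**Figure D4:**
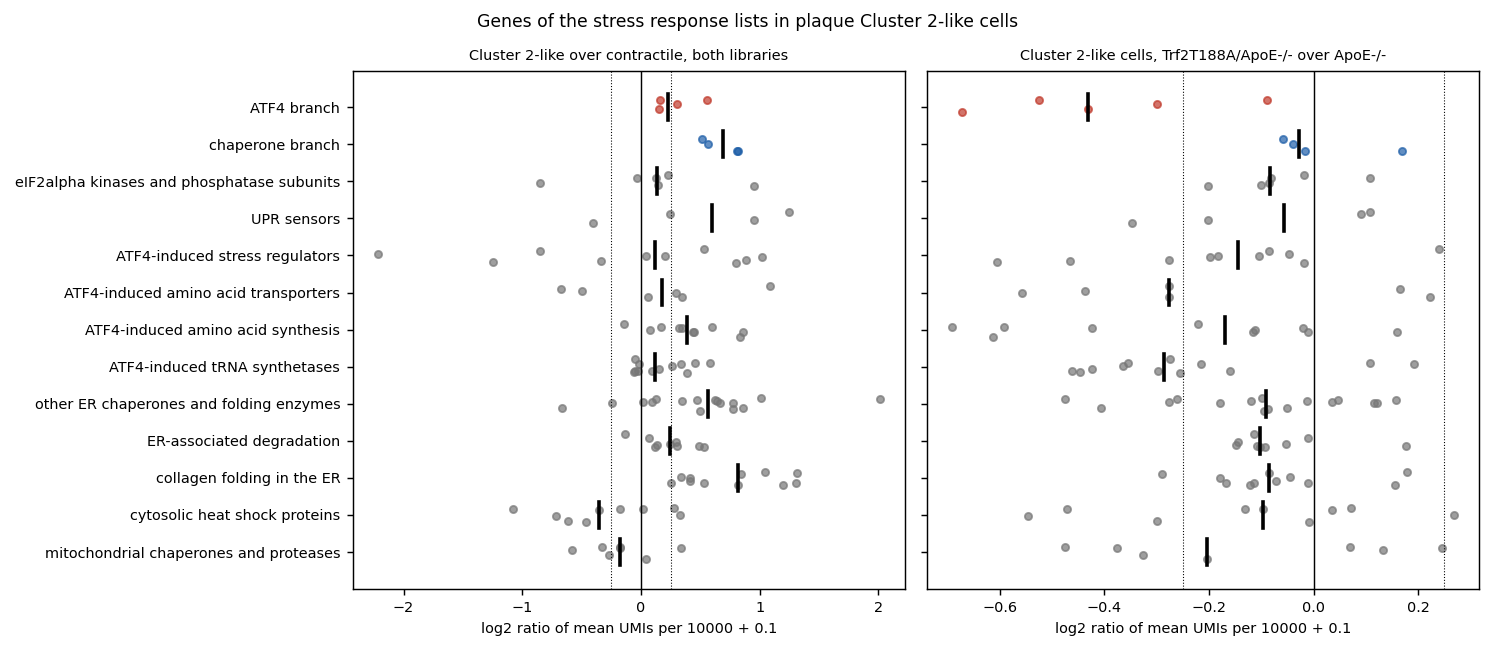
Log2 ratio of each gene found in 10% or more of cells (points) of 13 pathway lists (rows), Cluster 2-like over contractile plaque cells on the left and Trf2T188A/ApoE-/- over ApoE-/- within Cluster 2-like cells on the right, with black bars at the list medians and dotted lines at 0.25 above and below 0. On the left the collagen folding genes (median 0.81) and the chaperone branch (0.69) stand to the right of 0, and on the right the tRNA synthetases (−0.29) and the ATF4 branch (−0.43 over its detected genes) stand to the left.

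In contractile cells of the plaque the pattern was another one. Atf5 had a mean of 0.772 (0.730 to 0.815) in ApoE-/- and 1.05 (0.982 to 1.13) in Trf2T188A/ApoE-/- cells, a ratio of 0.40 (0.26 to 0.55), with a UMI in 59.9% and 60.6% of cells and, after thinning, in 36.8% and 36.2%. The mean thus differed while the share of cells did not differ beyond its interval. Hspa5 had a ratio of 0.27 (0.21 to 0.32). Thus 1 gene of each branch was called higher, where 2.96% of 10153 genes were called higher and 3.37% lower. Both calls were lost when cells were thinned before clustering, at 0.11 for Atf5 and 0.17 for Hspa5. They were also lost when 1 was added to each mean in place of 0.1, at 0.21 and 0.23. Thinning within the same classes gave 0.12 for Atf5. Hspa5 fell to 0.23 when UMIs were summed over cells, 0.21 at the lower clustering resolution and 0.24 when the libraries were integrated. Atf4 was at 1.08 and 1.09 and Ddit3 at 0.407 in both. Xbp1 had a ratio of 0.17, Hsp90b1 of 0.12 and Pdia4 of 0.01. Chac1 had means of 0.00862 and 0.0347, in under 10% of the cells of either library. Of 16 other ER chaperones 3 were higher, among them Sdf2l1 at 0.47 and Pdia6 at 0.28. Digestion-induced genes summed to 105 and 104 UMIs per 10000.

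In Cluster 3-like cells the chaperone branch was higher in the Trf2T188A/ApoE-/- library. Hspa5 had a mean of 6.38 (6.16 to 6.60) and 9.48 (9.20 to 9.78), a ratio of 0.57 (0.48 to 0.65). Xbp1 had 0.673 and 0.932, a ratio of 0.42 (0.20 to 0.63) that moved to 0.21 at the lower clustering resolution, and Pdia4 0.585 and 0.888, a ratio of 0.53 (0.29 to 0.76). Hsp90b1 had a ratio of 0.13, so 3 of 4 genes were called higher, where 8.85% of 10854 genes were called higher and 10.5% lower. The median was 0.47 (0.31 to 0.63). Atf4 had 0.28 (0.08 to 0.48) and Atf5 −0.26 (−0.48 to −0.04). However, the first fell to between 0.16 and 0.23 under most alternatives, and the second turned to 0.22 when the libraries were integrated before clustering. Other ER genes of Cluster 3-like cells were higher too, 6 of 16, with Sdf2l1 at 1.05 and Manf at 0.57. Digestion-induced genes were higher in the same comparison, 13 of 16 with a median of 0.49, and summed to 97.8 and 137 UMIs per 10000. The cytosolic heat shock genes were higher in 7 of 9, with Hspa1b at 0.88. The immune markers summed to 0.496 and 0.995. The part of these in the chaperone values was not tested.

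Ddit3 in Cluster 3-like cells rested on 1 cell. The means were 0.419 in ApoE-/- and 1.25 in Trf2T188A/ApoE-/- cells, from 216 and 373 UMIs, a ratio of 1.38 (1.14 to 1.62). A single Trf2T188A/ApoE-/- cell of 16653 UMIs held 186 of the 373. The same cell held 25 UMIs of Atf4, 20 of Atf5, 17 of Xbp1, 48 of Hspa5 and 19 of Hsp90b1, and 0 of Trib3, Asns and Chac1. Without the richest cell of each library the ratio fell to 0.27 in Cluster 3-like cells. Over all plaque cells it went from 0.14 (0.03 to 0.25), with means of 0.471 and 0.529, to −0.16, with means of 0.468 and 0.409. The ratio of Hspa5 in Cluster 3-like cells without the richest cells was 0.56, so it did not rest on 1 cell.

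Cluster 8-like cells showed lower Ddit3 in the Trf2T188A/ApoE-/- library. Ddit3 had means of 0.652 and 0.397, a ratio of −0.60 (−1.02 to −0.17). Asns had 0.150 and 0.108, a ratio of −0.27 (−0.68 to 0.15), which includes 0. In this small class 20.5% of 11145 genes were called lower and 20.9% higher. Chac1 had 0.0647 and 0.0109, from 25 and 5 UMIs, a ratio of −0.57 (−0.85 to −0.29), but it reached 10% of cells in the ApoE-/- library only, and without the third of cells richest in digestion-induced genes the ratio was −0.025. Digestion-induced genes summed to 200 and 234 UMIs per 10000 in Cluster 8-like cells. Hspa5 had a ratio of 0.18, which turned to −0.24 without the same cells. Atf4 itself was at −0.05. Xbp1 was called higher at 0.39 (0.06 to 0.72). In the remaining classes calls were common among all genes. Hspa5 had a ratio of −0.86 (−1.13 to −0.59) in the 44 and 22 Cluster 11-like cells, with means of 6.86 and 3.73. In that class 2 chaperone genes were called lower and 1 higher, where 28.2% of 10031 genes were called lower and 29.2% higher. Atf5 had −0.82 in Cluster 10-like cells, with means of 0.989 and 0.518, where 27% of 11251 genes were called lower and 25.5% higher. Of the chaperone branch 3 genes were called higher in Cluster 10-like cells, and of the ATF4 branch 2 lower. Trib3 also passed the threshold upward there, from means of 0 in ApoE-/- and 0.0401 in Trf2T188A/ApoE-/- cells. It reached 10% of cells only in the library where it was higher, and its ratio depends on the added 0.1. In Cluster 5-like cells Ddit3 had a ratio of −1.09, and −0.88 without the richest cells, since 1 ApoE-/- cell held 28 UMIs. There 31% of 9437 genes were called lower and 21.1% higher.

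After ligation, the cells fell into Cluster 0-like (1562 wild type and 2280 Trf2T188A cells, led by Sparcl1, Tcap and Rbp4), Cluster 1-like (2053 and 1914, Igfbp2, Eln, Col14a1 and Postn), Cluster 2-like (1156 and 1014, Lum, Dcn, Spp1 and Comp) and Cluster 3-like cells (114 and 61, the interferon genes Ifit3 and Isg15), with 62 and 65 endothelial-like and 20 and 58 immune-like cells. The question was again which branch differed by state and by genotype. The numbers in cluster names are those of each experiment and do not match between plaque and ligation.

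Atf5 was lower in the Trf2T188A than in the wild type ligated library, and the other members differed less. Its mean was 2.87 (2.82 to 2.92) in wild type and 1.87 (1.84 to 1.91) in Trf2T188A cells, a ratio of −0.59 (−0.63 to −0.55). A UMI was found in 67.5% and 67.3% of cells, and in 55.0% and 47.1% after thinning to 5000 UMIs. Atf4 had means of 2.98 (2.93 to 3.03) and 3.01, a ratio of 0.02 (−0.02 to 0.05). So Atf5 was called lower while Atf4 was not. Hspa5 had 14.7 (14.6 to 14.8) and 12.5 (12.4 to 12.6), a ratio of −0.23 (−0.25 to −0.21). Pdia4 had a ratio of 0.15 (0.09 to 0.21), Ddit3 of −0.10 (−0.16 to −0.03) and Hsp90b1 of −0.10 (−0.12 to −0.08). Of 7 members found in 10% or more of cells, 1 was called, where 1.87% of 8247 genes were called lower and 3.24% higher. The medians were 0.04 (0.00 to 0.08) for the ATF4 branch, −0.07 (−0.10 to −0.04) for the chaperone branch and −0.01 over all genes. The Atf5 gene (chr7:44812256-44816658, minus strand, GENCODE vM21 on GRCm38) overlaps Nup62 and Il4i1, which lie on the other strand, and Ddit3 (chr10:127290774-127296288, plus strand) overlaps Mars, also on the other strand. Whether reads of these neighbours were counted for either gene was not tested.

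Atf5 was lower in each of the large ligation classes. In Cluster 0-like cells it had means of 2.34 (2.26 to 2.42) and 1.33 (1.29 to 1.37), a ratio of −0.77 (−0.84 to −0.70), the only member called, where 1.96% of 8335 genes were called lower and 3.95% higher. In Cluster 1-like cells it had 3.67 (3.59 to 3.76) and 2.63 (2.57 to 2.70), a ratio of −0.46 (−0.52 to −0.41), where 5.89% of 8008 genes were called lower and 5.23% higher. In Cluster 2-like cells it had 2.44 (2.35 to 2.54) and 1.85 (1.78 to 1.93), a ratio of −0.38 (−0.47 to −0.30), where 5.53% of 8271 genes were called lower and 5.66% higher. The wild type mean was above the Trf2T188A mean in all 3, with intervals apart. In the small Cluster 3-like class the means were 1.84 and 1.76, a ratio of −0.06. Across the all-cell alternatives of processing, the Atf5 ratio ran from −0.63 to −0.43.

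**Figure D5:**
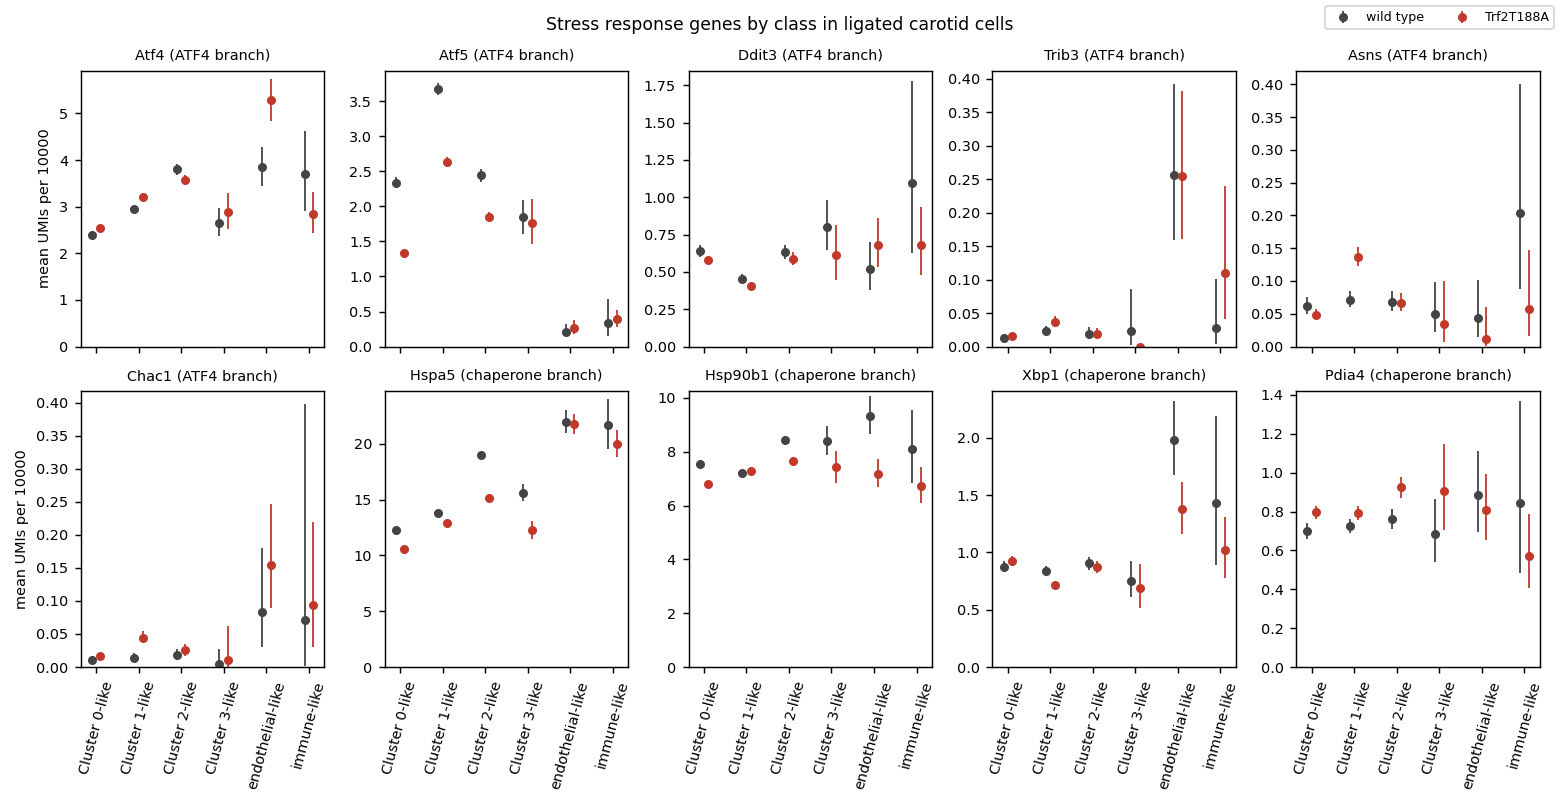
Mean UMIs per 10000 of each of the 10 genes (vertical axes, one panel per gene) in each cell class of the ligated carotid (horizontal axes), for the wild type library (dark points) and the Trf2T188A library (red points), with 95% counting intervals as bars. Atf5 is highest in Cluster 1-like cells in both libraries (3.67 and 2.63) and lowest in endothelial-like cells (0.212 and 0.268), and its red points lie under the dark ones in Cluster 0-like, 1-like and 2-like cells.

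Other members differed in single ligation classes. In Cluster 1-like cells Asns was higher in Trf2T188A cells, with means of 0.0717 (0.0603 to 0.0845) and 0.137 (0.123 to 0.152), a ratio of 0.47 (0.32 to 0.61), and a UMI in 3.20% and 5.64% of cells after thinning. In the same cells Trib3 had 0.0226 and 0.0370 and Chac1 0.0144 and 0.0442, both in under 10% of cells. Asns too reached 10% of cells only in the Trf2T188A library, the deeper one, and in neither after thinning, so its call rests on that filter. In Cluster 2-like cells Hspa5 had 19.0 (18.7 to 19.2) and 15.2 (14.9 to 15.4), a ratio of −0.32 (−0.35 to −0.29), and Pdia4 a ratio of 0.25 (0.13 to 0.37), at the threshold, which moved to 0.08 without the third of cells richest in digestion-induced genes. The immune markers summed to 1.11 in the wild type and 2.92 in the Trf2T188A library and the digestion-induced genes to 185 and 169, and their part in these values was not tested. Without the third of cells richest in digestion-induced genes the ratio of Hspa5 over all ligated cells was −0.24. Of the other lists over all ligated cells, Gdf15 was higher at 0.47 and Hspa1a at 0.37, and none of 15 other ER chaperones was called.

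In Cluster 1-like over Cluster 0-like cells of the ligated carotid, the ATF4 branch had the higher median, although its genes ran in both directions. Cluster 1-like over Cluster 0-like cells had ratios of 0.75 (0.71 to 0.79) for Atf5, 0.31 (0.27 to 0.35) for Atf4 and −0.42 (−0.50 to −0.34) for Ddit3. Among chaperone genes Hspa5 had 0.23, Hsp90b1 and Pdia4 0.02 and Xbp1 −0.20. So 0 of 4 were called with the libraries together, where 7.31% of 8137 genes were called higher and 13.2% lower. However, in Trf2T188A cells alone Hspa5 had 0.28 and Xbp1 −0.34, where 8.41% of 8511 genes were called higher and 17.1% lower. The medians were 0.25 (0.21 to 0.29) for the ATF4 branch and 0.02 (−0.02 to 0.05) for the chaperone branch, the reverse of their order in plaque Cluster 2-like cells, although the states of the experiments are not matched and the difference was not tested. Of 9 cytosolic heat shock genes 8 were higher in Cluster 1-like cells (median 0.66). In Cluster 2-like over Cluster 0-like cells Atf4 had 0.56 (0.51 to 0.60) and Hspa5 0.58 (0.55 to 0.60), 1 gene of each branch, where 16.2% of 8327 genes were called higher and 21.9% lower. Atf5 had 0.22 there with the libraries weighted equally, beside 0.06 in wild type and 0.45 in Trf2T188A cells alone.

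Endothelial-like cells, which do not carry an active transgene by design, had their own pattern. Over Cluster 0-like cells, Atf5 had a ratio of −2.51 (−2.82 to −2.19), Trib3 of 1.64 (1.28 to 2.01), Chac1 of 0.95, Hspa5 of 0.93, Atf4 of 0.86 and Xbp1 of 0.83. Thus Atf4 was higher, Atf5 lower and 2 chaperone genes higher, while Trib3 and Chac1 reached 10% of cells on the endothelial-like side only, where 36.8% of 9626 genes were called higher and 31.0% lower. Trib3 was found in 30.6% of wild type and 27.7% of Trf2T188A endothelial-like cells, from 21 and 23 UMIs, and in 17.5% and 7.81% after thinning, against 0.482% and 0.809% of thinned Cluster 0-like cells. No cell type here is known to lack these genes, so the share that free RNA gives was not measured. Between genotypes, Atf4 in endothelial-like cells had means of 3.84 (3.44 to 4.28) and 5.28 (4.84 to 5.75), a ratio of 0.45 (0.23 to 0.67). Xbp1 had a ratio of −0.49 and Hsp90b1 of −0.37, where 22.7% of 9478 genes were called higher and 28.4% lower. Digestion-induced genes summed to 177 and 238 UMIs per 10000 in these cells. Without the third of cells richest in them the ratio of Atf4 was 0.17 and that of Hsp90b1 −0.21, both within the threshold, and that of Xbp1 −0.82. Immune-like cells likewise had low Atf5, with means of 0.341 and 0.387.

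The members also varied from cell to cell within a class. The Spearman correlation between chaperone genes over thinned plaque Cluster 2-like cells had a median over 6 pairs of 0.21 over 153 ApoE-/- and 0.22 over 114 Trf2T188A/ApoE-/- cells, led by Hspa5 with Hsp90b1 at 0.37 and 0.48. In contractile cells the same median was 0.04 and 0.08 over 740 and 318 cells. After ligation Atf4 with Hspa5 was the highest pair in each class and library of Cluster 0-like, 1-like and 2-like cells, at 0.14 to 0.30. Both genes also correlated there with the sum of digestion-induced genes, at 0.14 to 0.43 for Atf4 and 0.13 to 0.47 for Hspa5, whereas Hsp90b1 was at −0.19 to −0.09. The cells of a class share 1 library, and these values are weak and given as a description.

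Across class and library means, the genes most like each leading member were named by Pearson's r over 16 plaque and 12 ligation means, which share libraries and classes. In plaque, those nearest Atf4 were Slc3a2 (0.873), the heavy chain of amino acid transporters, Foxc2 (0.866) and Inf2 (0.857). Those nearest Hspa5 were Tbc1d13 (0.905), Sdf2l1 (0.882) and Layn (0.870), with Hsp90b1 at 0.769, Pdia4 at 0.735 and Atf4 at 0.074. After ligation Atf4 was nearest Wsb1 (0.927), the immediate early gene Ier3 (0.918) and Emp1 (0.904). Hspa5 was nearest Srsf2 (0.962), Apoe (0.948) and Sf3b1 (0.948), with Atf4 at 0.732 and Atf5 at −0.752. So Atf4 and Hspa5 were near each other over the ligation means and not over the plaque means. Trib3, found in 3.70% and 2.55% of cells, was too sparse for this comparison.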

How the data were processed

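The labels describe droplet 3′ single-cell libraries of mouse arteries (10x Single Cell 3′, genome GRCm38). The authors made the deposited values with Cell Ranger 7.0.0 and 6.1.2 and Seurat 4.3.0 and 3.2.1, per the labels. Each deposited signal value is the UMI count of a gene divided by the total of its cell and multiplied by 10000, on a linear scale. The sum over a cell was 10000, and whole UMIs were recovered from 100% of values within 0.01 and used here. The authors had already removed cells with few genes or a high mitochondrial share. The tables of each experiment were joined by gene, normalised and clustered (Seurat 5.3.0 in R 4.3.3) without integration of the libraries. Clustering used 2000 variable genes without the stress lists, at 18 components and resolution 0.9 in plaque and 17 and 0.2 after ligation. Integration of the libraries was run only as an alternative. Clusters of 50 or more cells were named from 3 or more markers, with a limit of 0.4 on the marker score chosen after seeing the data. A doublet caller (scanpy 1.11.5) marked 4 of 12790 cells and so did not work, so doublets stayed in, and removal of the 5% of cells with the highest score was an alternative. Levels are means over cells of UMIs per 10000 (Python 3.11.15, numpy 2.4.6, scipy 1.17.1), with exact Poisson intervals, and ratios add 0.1 to each mean. In each list the 2 highest and 2 lowest genotype ratios per comparison could be named. No p-value was computed, since each genotype is 1 library. The ratios and their intervals were tested on simulated Poisson counts of better-detected genes. That test does not cover further spread between cells or sparse genes such as Trib3, Asns and Chac1. The members and lists were chosen with earlier results of these data known.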

Additional observations from a re-analysis of the deposited data

Results flagged for a closer look

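The genotype ratio of 3 members had opposite signs in the experiments, with an interval away from 0 in each. Hspa5 had a log2 ratio of Trf2T188A over control of 0.23 in plaque and −0.23 after ligation, Hsp90b1 of 0.081 and −0.10, and Ddit3 of 0.14 and −0.10. The difference between the experiments was not tested, since each holds 1 library per genotype and they differ in model, in ApoE genotype and in the Cell Ranger version. For Ddit3 the plaque value turned to −0.16 without the richest cell of each library.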

How the results depend on the processing

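No paired analysis was possible because each genotype is 1 library in each experiment. Of 1630 values under alternatives, 80 of the 96 that summarise a branch or a count of calls stayed within their counting interval or within 1.5 times the count, and of 1588 ratios 119 changed sign, 7 of them among the 551 with a main value past the threshold, of which 91 no longer passed it (29 of these with a pseudocount of 1). A pseudocount of 1 in place of 0.1 lowered the plaque genotype median of the chaperone branch to 0.090, the plaque Cluster 2-like over contractile medians to 0.069 (ATF4 branch) and 0.45 (chaperone branch) and the ligation Cluster 1-like over Cluster 0-like ATF4 median to 0.044, and it left 11 of 30 plaque and 11 of 21 ligation values of members past the threshold. Without the third of cells richest in digestion-induced genes the plaque chaperone median was 0.26, the ligation ATF4 median −0.0086, the ligation count 13, Atf5 in plaque Cluster 3-like cells 0.029 and Ddit3 in endothelial-like cells −0.24. Atf5 in plaque Cluster 3-like cells was 0.22 with reciprocal PCA integration and 0.064 when thinned before clustering, which also gave a ligation count of 12. Asns in endothelial-like cells was 0.39 when thinned and 0.39 when thinned before clustering. Cluster 2-like over contractile cells had an ATF4 median of 0.43 in ApoE-/- and −0.062 in Trf2T188A/ApoE-/- cells (Atf5 −0.043 in the latter), and a chaperone median of 0.59 in the latter and 0.80 from summed UMIs. Cluster 1-like over Cluster 0-like ATF4 medians were 0.11 in wild type and 0.32 in Trf2T188A cells. The genotype ratios of Atf4, Atf5, Ddit3 and Asns in plaque Cluster 2-like cells kept their sign over all alternatives run. They ran from −0.51 to −0.24 for Atf4, −0.47 to −0.10 for Atf5, −0.62 to −0.20 for Ddit3 and −0.67 to −0.11 for Asns, and fell short of 0.25 at the weak end of each range. Those of Trib3 (−0.39 to 0.10) and Chac1 (−0.10 to 0.29) took both signs. Of the chaperone genes, Hspa5 (−0.06 to 0.22), Hsp90b1 (−0.06 to 0.14) and Xbp1 (−0.08 to 0.03) stayed within 0.25. Pdia4 ran from 0.01 to 0.29, highest when cells were thinned before clustering. At the lower clustering resolution plaque gave no Cluster 11-like or 4-like class and ligation no Cluster 0-like class. The causes were not tested. Leaving out the richest cell and comparing each further class with its reference were added after seeing the data.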
